A study of Mus musculus with 10 samples.

Results

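The 10 mitochondrially encoded respiratory chain genes described here are *mt-Co1*, *mt-Co2*, *mt-Co3*, *mt-Cytb*, *mt-Nd1*, *mt-Nd2*, *mt-Nd4*, *mt-Nd5*, *mt-Nd6* and *mt-Atp6*. They were taken by symbol from the 27267 genes listed in the deposited table of normalized counts, 30 of which carry the mitochondrial prefix mt-. All 10 were found, and 7 of them passed the filter of a mean normalized count of at least 10. The other 3, *mt-Co2*, *mt-Co3* and *mt-Atp6*, were at or near 0 in every library and are described by their reads.

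The libraries were made from interscapular brown adipose tissue (iBAT) of C57BL/6 mice on a standard chow diet, labelled male and 4 weeks of age. There were 5 wild-type libraries and 5 labelled *Mgp*-KO. By this label the mice lack, globally and thus in every cell type, matrix Gla protein, an extracellular inhibitor of bone morphogenetic proteins. The report uses the deposited normalized counts, which are reads counted on genes divided by the size factor of each library. The question was whether the abundance of these mRNAs differed between the genotypes, over all libraries and within replicates 1 to 3 and 4 and 5, because the sets of replicates differed in their share of mitochondrial ribosomal RNA (rRNA).

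Mitochondrial DNA is transcribed from both strands into long precursors that are cut into mRNAs, ribosomal RNAs and transfer RNAs. All of its mRNAs encode membrane subunits of the respiratory chain and of ATP synthase, and each of these complexes, with the exception of complex II, is assembled from mitochondrial and nuclear gene products. Brown adipose tissue is rich in mitochondria, and its uncoupling protein UCP1 releases the proton gradient built by the respiratory chain as heat.

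Between 9253793 and 22252260 reads were counted on genes per library. Some libraries went against their labels or stood apart. *Mgp* was at 466 to 1146 normalized counts with the wild-type label and at 0 to 0.821 in *Mgp*-KO 1 to 3, whereas the libraries with the labels *Mgp*-KO 4 and 5 had 500 and 331. *Xist*, a female-specific transcript, was at 5094 in the library labelled wild type 2 and at most 44.0 in the others. The sum over 15 skeletal muscle markers, all with reads in *Mgp*-KO 2 and 5, was at 44876 and 48570 in these libraries and between 692 and 8864 elsewhere. The library labelled *Mgp*-KO 4 had the highest summed endothelial markers, at 63223 against 19839 to 33769, and erythroid markers, at 101447 against 3009 to 26397. Wild type 3 had the highest sum of progenitor and fibroblast markers, at 47632 against 10753 to 28549. Within replicates 1 to 3, endothelial sums were 19839 to 22915 in wild type and 23664 to 27421 in *Mgp*-KO. Progenitor and fibroblast sums were 23254 to 47632 and 10753 to 22251 there. Both lists overlapped between the labelled groups in replicates 4 and 5. All 15 brown adipocyte markers had reads in every library, and their sum ranged from 159278 to 408849. It was 213246 to 230319 in wild type 1 to 3 and 159278 to 185322 in *Mgp*-KO 1 to 3. In replicates 4 and 5 it was 402412 and 408849 in wild type, against 209698 and 292359 in the libraries labelled *Mgp*-KO. The part of these cell type markers in the mitochondrial mRNAs was not tested.

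Before the levels are compared, the sequences of the genes matter, because copies of mitochondrial DNA lie in the nuclear genome and the reads were 50 bases long. For each gene, every window of 50 bases was compared with the other annotated transcripts of the same build. *mt-Co2*, a subunit of cytochrome c oxidase (complex IV), lies on chromosome M from 7013 to 7696 (GRCm38, forward strand), and 100% of its 635 windows were also in another transcript. Its copy *Gm28661*, an unprocessed pseudogene at chr1:24614885-24615565 on the reverse strand, was identical over 681 bases. The first 60 bases of both are shown in lower case because no base differed, at chrM:7013-7072 and chr1:24615506-24615565.
mt-Co2: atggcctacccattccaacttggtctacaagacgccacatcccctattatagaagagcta
Gm28661: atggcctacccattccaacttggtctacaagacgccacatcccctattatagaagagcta

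The same held for the other complex IV subunit *mt-Co3* (chromosome M, 8607 to 9390), with 734 of 735 windows shared, mainly with *Gm28437*, and for *mt-Atp6* (chromosome M, 7927 to 8607), the proton channel subunit of ATP synthase (complex V), with 629 of 632 windows shared, mainly with *Gm10925*. These copies lie beside each other on chromosome 1 and were identical to the mitochondrial genes over 783 and 678 bases. Of the mitochondrial mRNAs outside the 10, *mt-Nd3* and *mt-Nd4l* also shared 98.0% and 98.8% of their windows with neighbouring copies. *mt-Atp8* shared 0 of its 155 windows with other annotated transcripts, and it was not among the genes listed, so no level is given.

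*mt-Co1* (chromosome M, 5328 to 6872), the catalytic core of cytochrome c oxidase, shared 51.1% of its 1496 windows with other transcripts. Its full-length copy *Gm13340*, at chr2:22588103-22589647 on the reverse strand, differed at 37 of 1545 positions. Bases 24 to 83 of both are shown, counted from the 5′ end of the gene, with the differing bases C54A and A60G in capitals. They lie at chrM:5351-5410 and chr2:22589565-22589624.
mt-Co1: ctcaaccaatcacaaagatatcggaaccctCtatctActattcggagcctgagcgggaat
Gm13340: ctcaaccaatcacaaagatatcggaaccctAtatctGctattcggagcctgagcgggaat

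*mt-Nd4* (chromosome M, 10167 to 11544), a membrane subunit of NADH dehydrogenase (complex I), shared 62.2% of its 1329 windows. All of these lay in its first 876 bases, over which *Gm28439* on chromosome 1 was identical. Bases 847 to 906 (chrM:11013-11072) span the end of that copy, and capitals mark the bases beyond it.
mt-Nd4: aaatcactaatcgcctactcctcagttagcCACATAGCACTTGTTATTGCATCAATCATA

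Among the other complex I subunits, *mt-Nd2* (3914 to 4951) and *mt-Nd5* (11742 to 13565) shared 8.19% and 7.61% of their windows. *mt-Nd1* (2751 to 3707), *mt-Nd6* (13552 to 14070) and the complex III subunit *mt-Cytb* (14145 to 15288) shared none. *mt-Nd6* is the member of the 10 on the reverse strand, and its end overlaps the end of *mt-Nd5* by 14 bases, shown in capitals for each gene on its own strand, at chrM:13532-13565 and chrM:13552-13585. The strand setting of the counting was not given in the sources used here, so reads from a gene and from RNA of the opposite strand cannot be told apart.
mt-Nd5 end: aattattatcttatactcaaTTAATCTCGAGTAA
mt-Nd6 end: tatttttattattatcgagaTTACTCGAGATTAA

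The abundance of the genes fell into 2 ranges. The 7 genes with at most 62.2% of their windows shared had means of 112894 to 1334254 normalized counts over the 10 libraries. *mt-Co2* received 13 reads, *mt-Co3* 11 and *mt-Atp6* 17 over all 10 libraries. Their normalized counts ranged from 0 to 8.79 and lay in most libraries below a floor of 3 reads (2.15 to 5.19 normalized counts, depending on depth). *mt-Nd3* and *mt-Nd4l* had 172 and 2 reads. The 5 mRNAs with 98.0% or more of their windows shared were thus the 5 with few reads, whereas among the other 7 the order of levels did not follow the share of windows. Copies outside annotated transcripts were not searched, although the reads were mapped to the genome. The part of the shared sequence in the low counts was not tested.

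**Figure D1:**
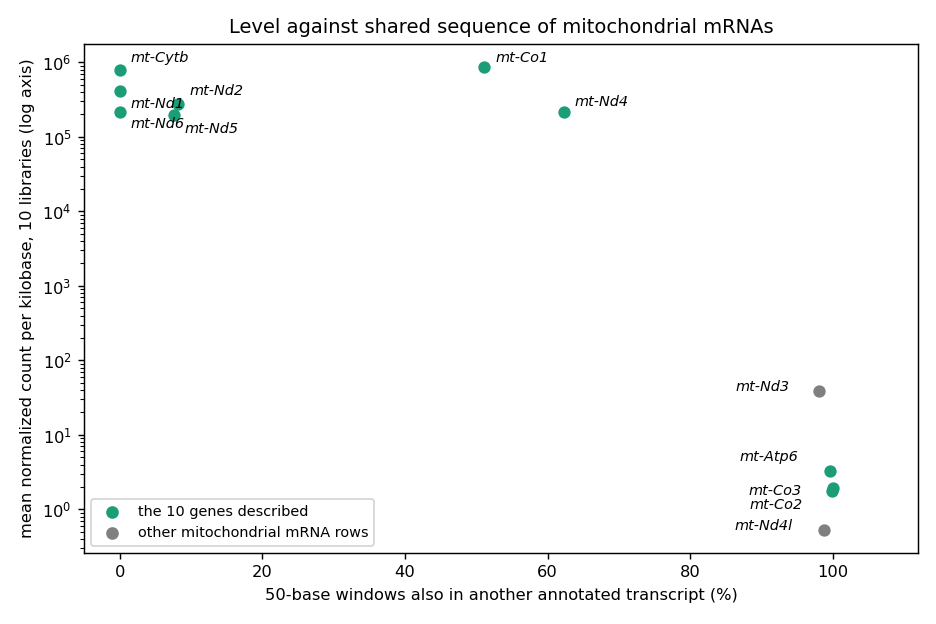
Mean normalized count per kilobase over 10 libraries (y axis, log scale) against the percentage of 50-base windows of each mitochondrial mRNA that also occur in another annotated transcript (x axis). Green points are the 10 genes described and grey points are *mt-Nd3* and *mt-Nd4l*; the 5 mRNAs with 98.0% or more of their windows shared lie below 100 and the other 7 at or above 197645.

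The copies themselves held few reads. *Gm28661*, *Gm28437* and *Gm10925* had means of 12.8, 10.8 and 9.81 normalized counts. Of the copies on chromosome 2, *Gm13340*, the copy of *mt-Co1*, had a mean of 479, *Gm13339*, a copy of part of *mt-Nd2*, of 11.2 and *Gm13341*, a copy of *mt-Co2* with 28 differences over 684 bases, of 162. *Gm13340* had a mean of 649 in replicates 1 to 3 and 224 in replicates 4 and 5, while *Gm13341* had 97.7 and 257. Values of genes with near-identical copies are therefore uncertain, and for *mt-Co1* and *mt-Nd4* the count can rest on part of the gene.

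Levels were compared between genes per kilobase of gene. The mean normalized count per kilobase was 863595 ± 541540 (SD, n = 10) for *mt-Co1* and 800558 ± 213594 for *mt-Cytb*, followed by *mt-Nd1* at 407475 ± 114102 and *mt-Nd2* at 274012 ± 113181. *mt-Nd4*, *mt-Nd6* and *mt-Nd5* had 217662 ± 96569, 217522 ± 208217 and 197645 ± 149317. *mt-Cytb* lay above *mt-Nd1*, and *mt-Nd1* above *mt-Nd2*, in 10 of 10 libraries. The other neighbours in the order did not differ beyond their spread, since *mt-Co1* lay above *mt-Cytb* in 6 of 10 libraries, *mt-Nd2* above *mt-Nd4* in 7, *mt-Nd4* above *mt-Nd6* in 8 and *mt-Nd6* above *mt-Nd5* in 4. Scaled instead to a kilobase of windows found in no other transcript, *mt-Co1* was at 1825244, *mt-Cytb* at 836382 and *mt-Nd4* at 597486, which moved *mt-Nd4* from the fifth to the third place.

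The order was not the same in the sets of replicates. In replicates 1 to 3 the level per kilobase was highest for *mt-Co1* (1206413 ± 393014, n = 6), which lay above *mt-Cytb* in 6 of 6 libraries, and lowest for *mt-Nd6* (87039 ± 20666). In replicates 4 and 5 it was highest for *mt-Cytb* (738313 ± 276588, n = 4) and lowest for *mt-Nd5* (64753 ± 40599). *mt-Nd6* then had a mean of 413247 ± 210289 per kilobase, and it lay above *mt-Nd1* in 2 of these 4 libraries.

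**Figure D2:**
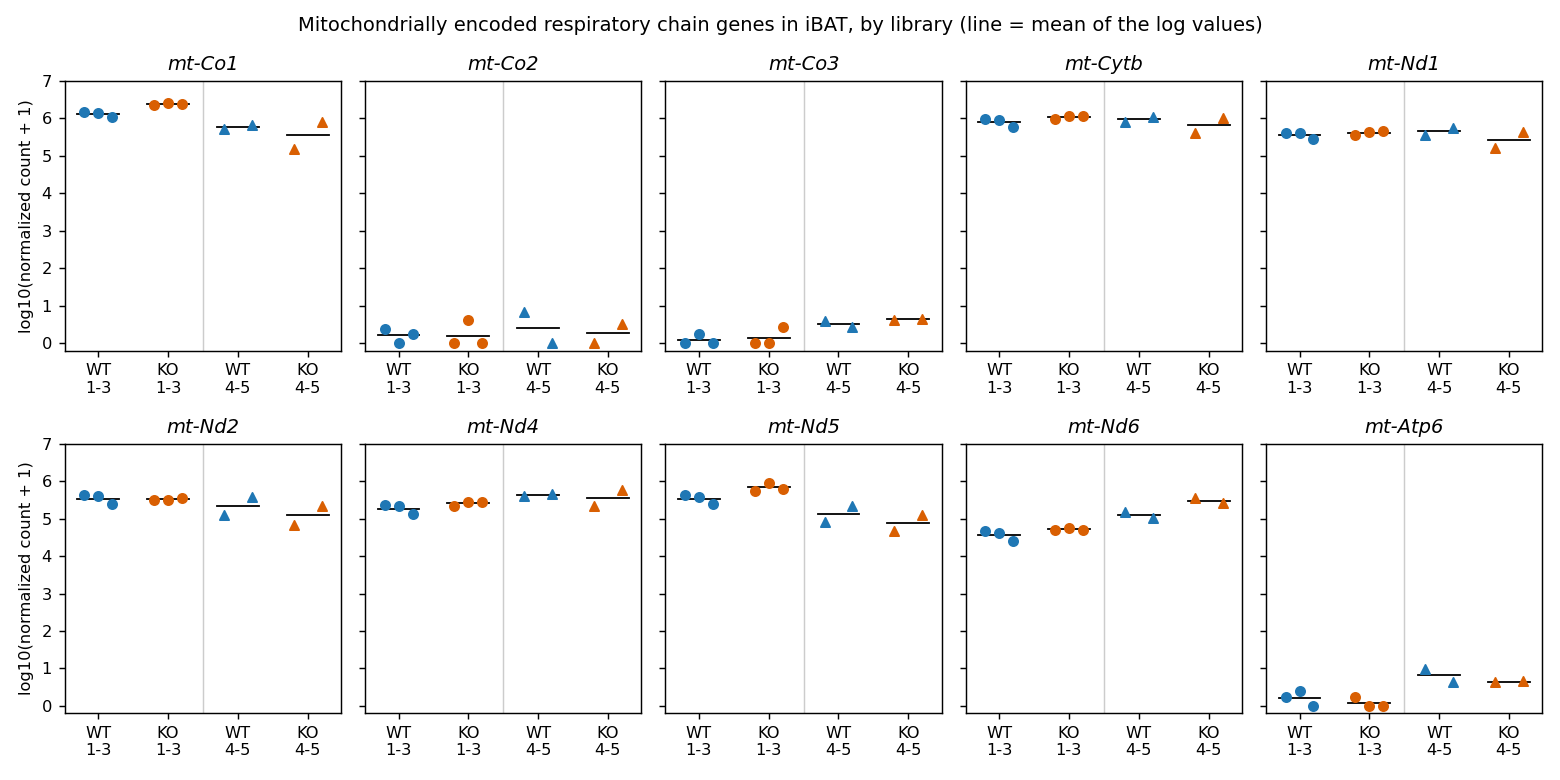
Each panel shows 1 gene, with log10(normalized count + 1) on the y axis and libraries grouped by genotype (blue wild type, orange labelled *Mgp*-KO) and by set of replicates on the x axis. Points are libraries and lines are means of the log values; *mt-Co2*, *mt-Co3* and *mt-Atp6* lie below 1, while *mt-Co1* and *mt-Nd5* are lower and *mt-Nd6* is higher in replicates 4 and 5.

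Together, the 10 genes took a large share of all reads on genes. The share was 26.7%, 24.8%, 17.7%, 15.0% and 19.4% in wild-type replicates 1 to 5. It was 29.2%, 33.1%, 33.4%, 9.46% and 22.4% in those of the *Mgp*-KO group. *Mgp*-KO 1 to 3 had the highest shares and *Mgp*-KO 4 the lowest. The share on *mt-Rnr1* and *mt-Rnr2*, which encode the mitochondrial rRNAs, ran from 0.771% to 1.72% in replicates 1 to 3. Replicates 4 and 5 had 6.50% to 16.7%, and *Mgp*-KO 4 was the highest. Reads of the 10 genes per read of rRNA thus ranged from 15.5 to 33.8 in replicates 1 to 3 and from 0.567 to 2.99 in replicates 4 and 5. The widest 95% binomial interval (Wilson) of any of these shares spanned 0.0481 percentage points, which reflects counting error alone and treats reads, which carried no molecular identifiers, as independent.

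**Figure D3:**
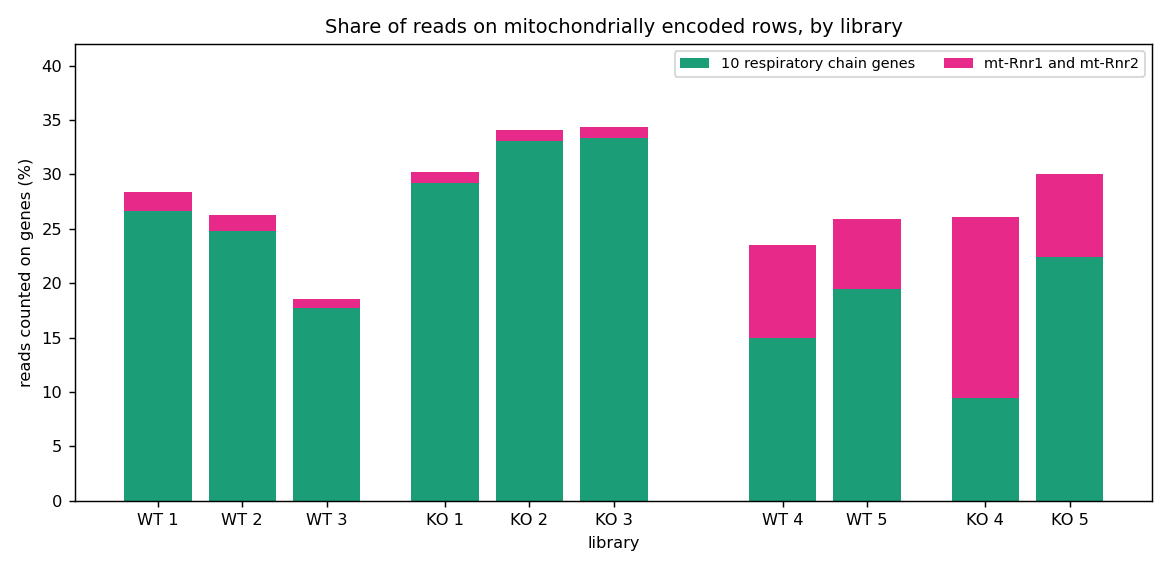
Bars give the percentage of reads counted on genes that lay on the 10 respiratory chain genes (green) and on *mt-Rnr1* and *mt-Rnr2* (pink) in each library, grouped by set of replicates and genotype. The pink part is at most 1.72% in replicates 1 to 3 and at least 6.50% in replicates 4 and 5, and the green part is smallest, 9.46%, in the library labelled *Mgp*-KO 4.

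The rRNA share did not differ between the genotypes beyond its spread. It was 3.81% ± 3.50 (SD, n = 5) in wild type and 5.47% ± 6.88 (n = 5) in the libraries labelled *Mgp*-KO (two-sided exact permutation test, p = 0.714). *mt-Rnr1* had 233039 ± 207806 and 289913 ± 346658 normalized counts (exact permutation, n = 5, p = 0.905), and *mt-Rnr2* 400479 ± 395795 and 546838 ± 682275 (exact permutation, n = 5, p = 0.722). Without the library labelled *Mgp*-KO 4 the means of this group were 2.67%, 146390 and 275609, below those of wild type. The rRNA share was 1.32% against 1.01% within replicates 1 to 3 and 7.53% against 12.2% within replicates 4 and 5, wild type first. The tests over all libraries do not account for the sets. These 3 values were also tested within each set, and reads of *mt-Rnr2* per read of *mt-Rnr1* over all libraries and within each set. Of all these tests of related values, the lowest p was 0.4 (exact permutation, rRNA share, replicates 1 to 3). The smallest p possible was 0.00794 for 5 against 5 libraries, 0.1 for 3 against 3 and 0.333 for 2 against 2.

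Over all 10 libraries, none of the 7 tested respiratory chain genes passed the test between the genotypes without a term for the set of replicates, and with such a term 1, *mt-Nd6*, passed it in DESeq2 but not in limma or edgeR. The tests used limma on log2(normalized count + 1) with Benjamini-Hochberg adjustment over 13714 genes, and fold changes are on this scale. It called 0 of the 7, of which 0 had an unadjusted p under 0.05, and 9 of all genes tested (0.0656%), with 1421 genes at an unadjusted p under 0.05. edgeR called 0 of the 7 (0.0219% of all genes) and DESeq2 0 of the 7 (2.26%), both on the recovered reads. Of the 7, 0 had groups that did not overlap (1.39% of all genes in the higher and 2.11% in the lower direction). The median log2 fold change of the 7 was 0.18, beside 0.03 over all genes tested. It was 0.047 under quantile normalization (beside -0.0036) and 0.30 with scaling to nuclear reads (beside 0.15). It turned negative without wild type 3 (-0.067) or without *Mgp*-KO 2 (-0.059), 3 (-0.040) or 5 (-0.031). *Mgp* itself was not called in this comparison, at -5.57 (limma, adjusted p = 0.236). It was at -8.43 within replicates 1 to 3 (limma, adjusted p = 9.60e-05) and at -1.27 within replicates 4 and 5 (0.679). The comparison over all libraries thus did not call the labelled deletion. In bulk tissue, fewer cells of a type and less RNA per cell cannot be told apart, and p-values measure only the spread between these samples.

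Complex I subunits are described first. *mt-Nd1*, which lies near the quinone site of the complex, had normalized counts of 420398, 407638, 287273, 361763 and 568701 in the wild-type libraries. Those labelled *Mgp*-KO had 355705, 423099, 463133, 162678 and 449147. The groups overlapped, and the lowest library was *Mgp*-KO 4. The log2 fold change was -0.20 with a standard error of 0.42 (limma, adjusted p = 0.910).

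*mt-Nd2*, a subunit of the proton-pumping membrane arm, was at 418599, 396928, 244144, 128450 and 372480 in the wild-type libraries. Its counts were 308625, 323057, 365107, 67577 and 219281 in those labelled *Mgp*-KO. Replicate 4 was the lowest of both groups. Its log2 fold change was -0.37 with a standard error of 0.54 (limma, adjusted p = 0.858).

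*mt-Nd4*, also of the membrane arm, had 224872, 215641, 130380, 410765 and 448850 normalized counts with wild-type *Mgp*. Libraries labelled *Mgp*-KO had 220263, 283337, 278816, 221546 and 564910. Wild type 4 and 5 and *Mgp*-KO 5 were higher than all others. On the log2 scale the difference was 0.18 with a standard error of 0.46 (limma, adjusted p = 0.929).

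*mt-Nd5*, the largest of these subunits, had wild-type counts of 429355, 375526, 246609, 83674 and 218997. The counts of the *Mgp*-KO group were 551734, 896745, 632633, 46939 and 122825. *Mgp*-KO 1 to 3 were the highest libraries and *Mgp*-KO 4 the lowest, so that the groups overlapped widely. Its log2 fold change was 0.26 with a standard error of 0.81 (limma, adjusted p = 0.945), and 0.73 in both edgeR and DESeq2.

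*mt-Nd6*, the subunit encoded on the opposite strand, had 47602, 42024, 25090, 152058 and 103316 normalized counts in the wild-type group. The *Mgp*-KO group had 50578, 54906, 50839, 348263 and 254264. Replicates 4 and 5 of both labelled groups were above all of replicates 1 to 3. Its log2 fold change of 0.80 with a standard error of 0.68 was the largest of the 7 over all libraries (limma, adjusted p = 0.737). Without *Mgp*-KO 4 it was 0.36, below *mt-Co1* at 0.95 and *mt-Nd5* at 0.91.

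Complex III has a single mitochondrial subunit, the cytochrome b gene *mt-Cytb*. Its wild-type counts were 994080, 936203, 597154, 802035 and 1111936. The *Mgp*-KO group had 959490, 1133313, 1159624, 414592 and 1049955. With the exception of *Mgp*-KO 4, the libraries labelled *Mgp*-KO lay within 959490 and 1159624. The log2 fold change was 0.03 with a standard error of 0.48 (limma, adjusted p = 0.989).

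For complex IV, *mt-Co1* had 1493537, 1367737, 1117415, 509054 and 666573 normalized counts among wild-type libraries. The *Mgp*-KO group had 2258386, 2522368, 2424007, 154736 and 828722. *Mgp*-KO 1 to 3 were above every wild-type library, *Mgp*-KO 5 was the highest of replicates 4 and 5 and *Mgp*-KO 4 was below all. On the log2 scale the difference was 0.24 with a standard error of 0.80 (limma, adjusted p = 0.950), and 0.66 in edgeR and 0.67 in DESeq2.

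*mt-Co2* had 2, 0, 1, 4 and 0 reads in the wild-type group and 0, 4, 0, 0 and 2 in the *Mgp*-KO group. *mt-Co3* had 0, 1, 0, 2 and 1 reads against 0, 0, 2, 2 and 3. The complex V gene *mt-Atp6* had 1, 2, 0, 6 and 2 reads against 1, 0, 0, 2 and 3. With so few reads no difference between the genotypes was detectable for these 3 genes, and no fold change is given.

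**Figure D4:**
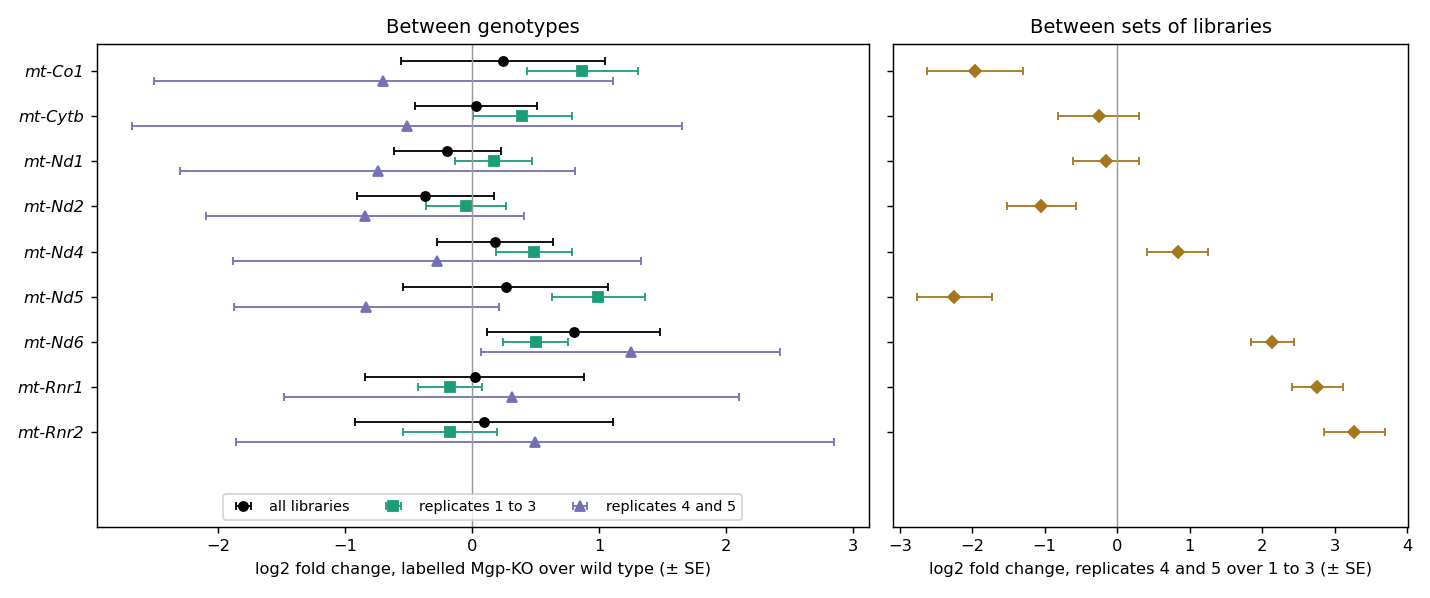
Points are log2 fold changes of the 7 tested genes and of *mt-Rnr1* and *mt-Rnr2*, and bars are standard errors from limma. On the left, the libraries labelled *Mgp*-KO are compared with wild type over all libraries (black), within replicates 1 to 3 (green) and within replicates 4 and 5 (purple); on the right, replicates 4 and 5 are compared with 1 to 3. *mt-Nd5* is at 0.99 within replicates 1 to 3 and at -0.83 within replicates 4 and 5.

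Within replicates 1 to 3, *mt-Co1*, *mt-Nd5* and *mt-Nd6* were higher in every library labelled *Mgp*-KO than in every wild-type library, as were 15.5% of all genes tested (15.1% were lower). *mt-Co1* had a mean of 1326230 ± 191465 normalized counts in wild type (SD, n = 3) and 2401587 ± 133411 in the libraries labelled *Mgp*-KO (n = 3). *mt-Nd5* had 350497 ± 93909 and 693704 ± 180431. *mt-Nd6* had 38239 ± 11724 and 52108 ± 2427.

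The log2 fold changes were 0.87 (standard error 0.44, adjusted p = 0.298) for *mt-Co1*, 0.99 (0.36, 0.174) for *mt-Nd5* and 0.50 (0.25, 0.299) for *mt-Nd6* in limma. It called 0 of the 7 genes, with 1 at an unadjusted p under 0.05, against 486 genes or 3.54% of all tested. edgeR called 1 of the 7, *mt-Co1* (log2 fold change 0.85, adjusted p = 0.0420; 3.27% of all genes called). DESeq2 called 2 of the 7, *mt-Co1* (adjusted p = 8.97e-06) and *mt-Nd5* (adjusted p = 0.00304), with 8.83% of all genes called.

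The other 4 genes overlapped between the genotypes within replicates 1 to 3. *mt-Nd4* had a log2 fold change of 0.49 and *mt-Cytb* of 0.39, while *mt-Nd1* and *mt-Nd2* were at 0.17 and -0.05. The median of the 7 was 0.49, beside 0.02 over all genes tested, and 6 of the 7 were positive. Without wild type 3, the library with the highest progenitor and fibroblast markers, the median was 0.22 and 5 were positive, and the part of these markers was not tested. *Mgp*-KO 2, with the high muscle markers, had the highest *mt-Co1* and *mt-Nd5*, and the log2 fold change of *mt-Co1* was between 0.75 and 0.96 whichever of the 6 libraries was left out. Without wild type 3, *mt-Nd6* was at 0.22, *mt-Nd4* at 0.23 and *mt-Cytb* at 0.16.

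Within replicates 4 and 5, 0 of the 7 genes were called by limma, edgeR or DESeq2, and at an unadjusted p under 0.05 there were 0, 0 and 1. The share of all genes called was 0% in limma (855 genes at an unadjusted p under 0.05), 0% in edgeR and 0.367% in DESeq2. Of the 7 genes, 6 had negative log2 fold changes, from -0.85 for *mt-Nd2* and -0.83 for *mt-Nd5* to -0.28 for *mt-Nd4*, and the median of the 7 was -0.70, beside 0.02 over all genes. It was -0.37 in edgeR and -0.38 in DESeq2, and in limma 0.15 without *Mgp*-KO 4. *mt-Nd6* was positive at 1.25 (standard error 1.18, adjusted p = 0.744), with 127687 ± 34466 in wild type and 301264 ± 66468 in the libraries labelled *Mgp*-KO (SD, n = 2 each). Its groups did not overlap, as for 20.3% of all genes in this direction and 21.3% in the other.

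Of these 6 negative values, 4 turned without *Mgp*-KO 4. Without this library the log2 fold changes were 0.51 for *mt-Co1*, 0.15 for *mt-Cytb*, 0.0036 for *mt-Nd2* and 0.40 for *mt-Nd4*, while *mt-Nd1* and *mt-Nd5* were at -0.014 and -0.14, in fits in which the lone library is assumed to vary like the others. The same library had the lowest nuclear gene sums for the complex I core, at 26710 against 48745 to 67266 elsewhere, and for complex II, at 24987 against 59150 to 80773. It also had the highest endothelial, erythroid and rRNA values given above, and their part in the low mitochondrial mRNAs was not tested.

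Whether the difference between the genotypes itself differed between the sets was tested as an interaction in limma. It was called for 0 of the 7 genes, and 0 of the 7 had an unadjusted p under 0.05. The 1 gene called (0.00729% of all genes tested) was *Mgp* itself, at 7.16 (limma, adjusted p = 2.51e-04). Libraries labelled *Mgp*-KO 4 and 5 kept 0.418 of the mean wild-type *Mgp* level of their set, against 0.00104 for *Mgp*-KO 1 to 3. The sets thus did not hold the same loss of *Mgp*. Among the 7, the largest interaction was that of *mt-Nd5*, at -1.83 with a standard error of 0.87 (limma, adjusted p = 0.483). A different response in the sets was therefore not shown for any of the 7, and the response to an equal loss of *Mgp* was not tested. With the set as a term, limma called 0 of the 7 (2.36% of all genes), edgeR 0 (2.49%) and DESeq2 1, *mt-Nd6*, at 0.76 (adjusted p = 0.0242, 7.42% of all genes). edgeR with the set term gave *mt-Nd6* an adjusted p of 0.143 and limma 0.172.

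Between the sets of replicates, with genotype in the model, 3 of the 7 genes were called by limma, where 38.2% of all genes were called (18.3% higher and 19.9% lower in replicates 4 and 5). *mt-Nd6* was higher in replicates 4 and 5 by 2.14 on the log2 scale (standard error 0.30, adjusted p = 3.99e-04), with a mean of 214475 against 45173 normalized counts. *mt-Nd5* fell by 2.25 (0.52, adjusted p = 0.00641), from a mean of 522100 to 118109. *mt-Co1* fell by 1.96 (0.66, adjusted p = 0.0360), from 1863908 to 539771. For each of these 3, the sets did not overlap, as was so for 11.8% of all genes in the higher and 13.4% in the lower direction.

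*mt-Nd2* was at -1.05 (adjusted p = 0.103; -1.66 and 0.00607 under quantile normalization), *mt-Nd4* at 0.83 (0.134), *mt-Cytb* at -0.26 (0.741) and *mt-Nd1* at -0.15 (0.821) in limma. edgeR called 4 of the 7 (37.7% of all genes), adding *mt-Nd4* (0.88, adjusted p = 0.0391). DESeq2 called 5 of 10 (32.7%), adding *mt-Nd4* (0.89, adjusted p = 0.00553) and *mt-Atp6* (3.30, 0.0197), whose 17 reads were 4 in replicates 1 to 3 and 13 in replicates 4 and 5. Without the filter on low counts, limma called *mt-Nd6*, *mt-Atp6* and *mt-Co3* (20.6% of all genes) and no longer *mt-Co1* (adjusted p = 0.484) or *mt-Nd5* (0.0988). The call of *mt-Co1* was lost without wild type 1, 2 or 4 or *Mgp*-KO 1, 2 or 3 (adjusted p = 0.0577 to 0.0732). The labels do not say how the sets differ, so the replicate numbers, the lower depth and the higher rRNA share of replicates 4 and 5 cannot be told apart.

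The make-up of the reads on the 10 genes showed the same split. In replicates 1 to 3, *mt-Co1* took 42.3% ± 4.62 of these reads (SD, n = 6), *mt-Cytb* 22.4% ± 2.10, *mt-Nd5* 11.6% ± 2.33, *mt-Nd4* 5.19% ± 0.41 and *mt-Nd6* 1.04% ± 0.10. In replicates 4 and 5 the shares were 18.6% ± 5.49 (n = 4), 31.0% ± 1.60, 4.13% ± 1.43, 15.4% ± 1.74 and 10.3% ± 9.73. *mt-Nd1* took 9.31% ± 1.61 and 13.9% ± 2.11. The shares of these 6 genes are given without a test and did not overlap between the sets, while *mt-Nd2* overlapped at 8.22% ± 2.12 and 6.74% ± 2.69. Shares add up to a whole, so a lower share of 1 gene raises the others, and the normalized counts of *mt-Cytb*, *mt-Nd1* and *mt-Nd4* overlapped between the sets. *mt-Nd6* took 24.6% in *Mgp*-KO 4 alone.

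**Figure D5:**
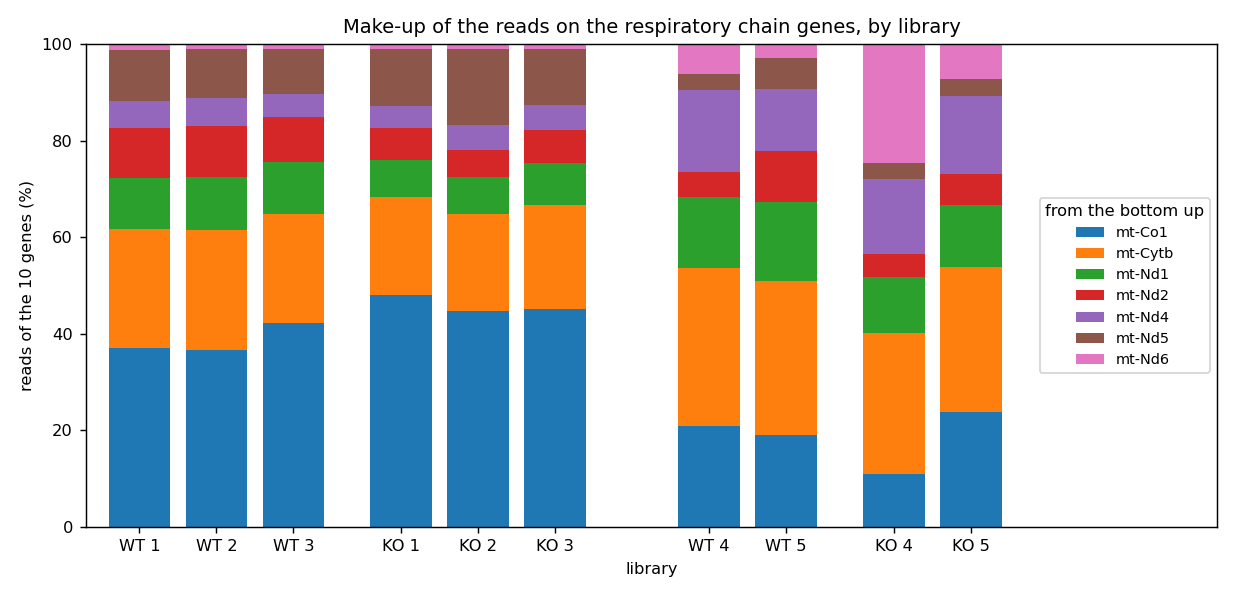
Stacked bars give the percentage of the reads on the 10 genes that lay on each of 7 genes in every library, with *mt-Co1* at the bottom and *mt-Nd6* at the top. *mt-Co1* takes 36.6% to 48.0% in replicates 1 to 3 and 10.9% to 23.8% in replicates 4 and 5, and *mt-Nd6* takes 0.946% to 1.18% and 2.96% to 24.6%.

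Ratios between single genes do not depend on the size factors. Reads of *mt-Nd6* per read of *mt-Nd5*, whose ends overlap on opposite strands, were 0.111, 0.112 and 0.102 in wild type 1 to 3, against 0.0917, 0.0612 and 0.0804 in *Mgp*-KO 1 to 3. Replicates 4 and 5 had 1.82 and 0.472 (wild type) and 7.42 and 2.07 (labelled *Mgp*-KO), all above replicates 1 to 3. Reads of *mt-Co1* per read of *mt-Cytb* were 1.50, 1.46 and 1.87 in wild type 1 to 3, against 2.35, 2.23 and 2.09 in *Mgp*-KO 1 to 3, so that the genotypes did not overlap within this set. In replicates 4 and 5 the same ratio was 0.635 and 0.599 (wild type) and 0.373 and 0.789 (labelled *Mgp*-KO), and the groups overlapped. These ratios were chosen after the values were seen and are given without a test.

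Of the transfer RNAs above the filter, 2 of 9 were called within replicates 1 to 3, where 3.54% of all genes were. Within replicates 1 to 3, *mt-Tl1*, the leucine transfer RNA beside *mt-Rnr2*, was higher in the libraries labelled *Mgp*-KO by 1.26 on the log2 scale (limma, adjusted p = 0.0483), with 2919 ± 806 normalized counts in wild type and 6962 ± 1789 in *Mgp*-KO (SD, n = 3 each). *mt-Tt*, the threonine transfer RNA, was higher by 1.12 (adjusted p = 0.0192), at 160 ± 27.2 and 348 ± 24.7. The other 7 transfer RNAs above the filter were not called, at 0.67 for *mt-Tw*, 0.35 for *mt-Tm*, 0.28 for *mt-Tc*, 0.17 for *mt-Te*, 0.13 for *mt-Tp*, -0.21 for *mt-Ti* and -0.74 for *mt-Tq*. Over all libraries the difference of *mt-Tl1* was 0.54 (adjusted p = 0.942) and that of *mt-Tt* 0.41 (adjusted p = 0.909).

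Between the sets, 7 of the 9 were called, where 38.2% of all genes were. *mt-Tl1*, *mt-Tt*, *mt-Tm*, *mt-Tw* and *mt-Te* were lower in replicates 4 and 5, with log2 differences of -5.25, -2.50, -2.03, -2.96 and -3.21, as was *mt-Nd3* at -3.15, all with adjusted p of 0.0143 or less in limma. *mt-Ti* and *mt-Tp* were higher by 2.45 and 1.69 (limma, adjusted p = 5.15e-04 and 7.10e-04). *mt-Tc* and *mt-Tq* did not pass the test, at 0.42 and -0.19.

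Among nuclear genes that serve mitochondrial gene expression, none passed the limma test over all libraries, where 0.0656% of all genes did, so that counts of 0 in these lists are near the background. In the list of transcription and replication of mitochondrial DNA, 0 of 17 tested genes were called and 11 were negative, with a median of -0.15, which was -0.064 for replicates 1 to 3 alone and -0.30 for replicates 4 and 5 alone. The range ran from *Tfb1m*, a methyltransferase of the mitochondrial small ribosomal RNA, at -0.61 (adjusted p = 0.640), to *Mterf4* at 0.22 (0.816). *Tfam*, which packages mitochondrial DNA and starts its transcription, was at 732 ± 180 and 582 ± 158 normalized counts (SD, n = 5 each; log2 fold change -0.35, limma adjusted p = 0.653). *Polrmt*, the mitochondrial RNA polymerase, was at -0.17 (limma, adjusted p = 0.930).

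In the list of mitochondrial RNA processing and stability, 0 of 29 were called and 24 were negative, with a median of -0.19. Within replicates 1 to 3, 15 were negative and the median was -0.0076, and within replicates 4 and 5, 26 were negative and it was -0.50. The summed list was lowest in *Mgp*-KO 4, at 12647 against 21354 to 27658 elsewhere. *Lrpprc*, which stabilises mitochondrial mRNAs, was at -0.46 (limma, adjusted p = 0.688) and *Ptcd3* at -0.68 (0.297). *Hsd17b10*, a subunit of the enzyme that cuts transfer RNAs from the precursors at their 5′ ends, was the highest at 0.75 (0.586). Within replicates 1 to 3 it was higher in *Mgp*-KO by 1.45 (standard error 0.25, limma adjusted p = 0.0312), as the single gene of these 29 that was called, where 3.54% of all genes were.

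Nuclear subunits of the same complexes were also not called over all libraries, against the same 0.0656% of all genes. The counts were 0 of 7 for the complex I core (6 negative, median -0.32), 0 of 9 for complex III (9 negative, -0.24), 0 of 14 for complex IV (12 negative, -0.17) and 0 of 9 for complex V (6 negative, -0.15). Complex II, which has no mitochondrial subunit, had 0 of 4 called (4 negative, -0.39). The factors of mitochondrial translation and membrane insertion had 0 of 13 (12 negative, -0.29). The medians lie beside 0.03 over all genes, and they include *Mgp*-KO 4. Within replicates 1 to 3, where the median of the 7 mitochondrial genes was 0.49 (0.22 without wild type 3), they were -0.09, -0.09, -0.06, 0.03, -0.01 and -0.24 in the same order.

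*Ucp1*, the uncoupling protein of brown adipocytes, was lower in the libraries labelled *Mgp*-KO within replicates 1 to 3, at 41978 ± 3926 normalized counts in wild type and 7681 ± 4972 (SD, n = 3 each; log2 fold change -2.76, limma adjusted p = 0.0454). Over all libraries it was at -2.70 (limma, adjusted p = 0.0601). *Elovl3*, a fatty acid elongase of brown fat, fell by 3.05 within replicates 1 to 3 (adjusted p = 0.0313). These were the 2 of 15 brown adipocyte markers called there, where 3.54% of all genes were called. Of the 15, 6 were positive, and their median was -0.14.

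Between the sets, several nuclear lists held genes that passed the limma test in both directions, beside the 18.3% of all genes that were higher and the 19.9% that were lower in replicates 4 and 5. Of the 17 genes of transcription and replication 4 were higher and 2 lower, among the latter *Polrmt* at -1.40 (adjusted p = 2.14e-04). Of the 29 genes of RNA processing 3 were higher and 7 lower. *Lrpprc* was at -0.79 (adjusted p = 0.0295), and *Slirp*, the partner of its protein in binding mitochondrial mRNAs, at 1.49 (5.64e-05). Complex III had 5 of 9 genes higher and 0 lower, complex IV 5 of 14 higher and 2 lower, complex V 2 of 9 higher and 0 lower, the complex I core 0 higher and 1 of 7 lower, and complex II 0 of 4.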

How the data were processed

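The authors mapped single reads to the mouse genome (mm10) with STAR, counted them with its gene counting option, which keeps reads that map to 1 place, and divided the counts by DESeq2 size factors. These deposited normalized counts are a signal per gene, never negative. Dividing by each library's smallest step gave whole reads for all values (100%, tolerance 0.01 reads), which served edgeR 4.0.16 and DESeq2 1.42.0.

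The test was limma 3.58.1 in R 4.3.3 (lmFit, eBayes with trend) on log2(normalized count + 1), for genes with a mean of at least 10, with Benjamini-Hochberg adjustment, at an adjusted p of 0.05. It was also run on simulated counts with a fixed dispersion and, between genotypes, no set difference, so that run does not measure power here. Windows and sequences came from GENCODE M21 transcripts of GRCm38, and copies from blastn 2.17.0. Of the listed symbols, 2 occur in duplicate.

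The members and lists were chosen with earlier results of these data known. Named are the 10 genes, other mitochondrial rows above the filter, their nuclear copies, *Mgp*, genes of each list that were called or changed most, and the 5 nuclear genes with the nearest profile. *Xist*, *Tfam*, *Polrmt*, *Lrpprc*, *Slirp* and *Ucp1* were named after their values were seen. Alternatives were other pseudocounts, filters, scalings, tools, a block and left-out libraries. Leaving out *Mgp*-KO 2 and 5 or 4 and 5 together, and the set term in edgeR and DESeq2, were chosen after seeing the data.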

Additional observations from a re-analysis of the deposited data

Results flagged for a closer look

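In 28 groups of libraries (each of the 10 genes, their share of reads, *mt-Rnr1*, *mt-Rnr2* and the rRNA share, by genotype), the highest or lowest library was judged by its gap to the nearest other library as a share of the range. Chance sets about 1 in 20 groups apart, and 3 of the 28 were found. *mt-Cytb* was at 414592 in the library labelled *Mgp*-KO 4, where the other 4 of the group were at 959490 to 1159624. *mt-Nd4* was at 564910 in the library labelled *Mgp*-KO 5, against 220263 to 283337. *mt-Co2* was at 5.86 in wild type 4, which is 4 reads, against 0 to 1.43.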

How the results depend on the processing

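For replicates 1 to 3, the 0 calls became 1 in edgeR and 2 in DESeq2. Between the sets, 3 became 5 in DESeq2, and without a filter limma's 3 were *mt-Nd6*, *mt-Atp6* and *mt-Co3*. Quantile normalization added *mt-Nd2* to the 3. Over all libraries, 0 became 1 in DESeq2 with a set term. Under quantile normalization *mt-Co1*, *mt-Cytb* and *mt-Nd2* turned to -0.16, -0.20 and 0.047 over all libraries, *mt-Co1*, *mt-Cytb*, *mt-Nd1* and *mt-Nd2* to 0, 0, -0.061 and 0.24 in replicates 1 to 3, *mt-Nd4* to 0.10 in replicates 4 and 5, and *mt-Cytb* to 0.13 between the sets. Values of 0 there follow from the method, which gives genes of equal rank in every library 1 value. Without *Mgp*-KO 2 and 5 together, *mt-Co1*, *mt-Cytb* and *mt-Nd4* turned to -0.0061, -0.17 and -0.12 over all libraries, and 2 calls between the sets were made. Without *Mgp*-KO 4 and 5, *mt-Nd1*, *mt-Nd2* and *mt-Nd6* turned to 0.044, 0.21 and -0.21, but this sets *Mgp*-KO 1 to 3 against wild type of both sets, so that genotype and set cannot be told apart. The causes were not tested.

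With 1 library left out, the calls stayed at 0 between genotypes and were 2 to 4 between the sets, and the median of the 7 was -0.07 to 0.30. Over all libraries *mt-Co1* was -0.054 to 0.95, *mt-Cytb* -0.11 to 0.30, *mt-Nd1* -0.32 to 0.076, *mt-Nd2* -0.66 to 0.060, *mt-Nd4* -0.067 to 0.38, *mt-Nd5* -0.15 to 0.91 and *mt-Nd6* 0.36 to 1.13. In replicates 1 to 3 *mt-Nd1* was -0.0085 to 0.27 and *mt-Nd2* -0.30 to 0.090. In replicates 4 and 5 *mt-Co1* was -1.91 to 0.51, *mt-Cytb* -1.19 to 0.15, *mt-Nd2* -1.69 to 0.0036 and *mt-Nd4* -0.95 to 0.40. Between the sets *mt-Cytb* was -0.45 to 0.11 and *mt-Nd1* -0.38 to 0.24. Over all alternatives, 546 single-gene values kept direction and side of the threshold, 38 did not keep their direction, 9 gained a call and 9 lost one. Values that were not called and stayed so are among the 546. Scaling to nuclear reads moved the median of all genes to 0.15 (0.25 in replicates 4 and 5) and that of the 7 over all libraries to 0.30.

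The replicate numbers were not taken as pairs, although the mice are described as pairs, since no label ties the numbers to them and same-numbered deviations correlated at 0.527, 0.0559, 0.327, 0.523 and 0.514. Their mean was 0.390, against 0.416 for other numbers of the same set, and 5 of 10 libraries correlated best with their own number. With the replicate block, 0 of the 7 were called in every comparison of genotypes, while over all genes 270 were called in all libraries (9 without it), 265 for replicates 1 to 3 (486 without) and 0 for replicates 4 and 5 (0 without). Calls of *mt-Atp6* and *mt-Co3* between the sets rest on 17 and 11 reads.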

Other observations

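The nuclear genes whose centred log2 values over the 10 libraries lay closest to the mean profile of the 7 tested genes were *Zfp280c*, *Rnf13*, *2700062C07Rik*, *AW549877* and *Atp11b*, at root mean square distances of 0.153 to 0.208 on the log2 scale. The median distance over all nuclear genes was 0.655. *mt-Cytb* lay at 0.0886 and *mt-Nd1* at 0.214 from this profile, while *mt-Co1*, *mt-Nd5* and *mt-Nd6* lay at 0.836, 0.970 and 1.42. The 5 were chosen as the nearest of all nuclear genes.

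Means of copies of other members are given by set, without a test. *Gm11408*, a copy of *mt-Nd6* on chromosome 4, had a mean of 8.48 normalized counts in replicates 1 to 3 and 61.7 in replicates 4 and 5. *Gm4076*, a copy of *mt-Nd5* on chromosome 13, had 40.6 and 9.27, while another copy of this gene on chromosome 4, *Gm11407*, had 7.94 and 19.4, and *Gm11410*, a copy of *mt-Cytb* on chromosome 4, had 35.7 and 60.7.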
